A study of Arabidopsis thaliana with 9 samples.

Results

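Arabidopsis plastids keep a small genome of their own, and 44 of its genes are described here: those for photosystem II (PSII), photosystem I (PSI), the cytochrome b6f complex and the NADH dehydrogenase-like (NDH) complex, together with rbcL, accD, clpP, matK, cemA and ccsA. They were chosen by name, as every ATH1 probe set with 1 gene symbol that starts in lower case with psa, psb, pet, ndh or ycf or equals one of the latter 6 names. The rule gave 44 of 22746 probe sets tested (13513 of which carry 1 symbol), and all 44 symbols are on the plastid chromosome in RefSeq. The probe sets of ycf1, ycf2 and ndhB name both copies of an inverted repeat and fell outside the rule. PSII is represented by 15 genes, PSI with its assembly factors by 7, the cytochrome b6f complex by 6, the NDH complex by 10, and 6 genes have other tasks.

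The study set a mutant and an inhibitor that disturb tetrapyrrole synthesis beside wild type, using RNA of whole seedlings on 9 ATH1 arrays. All seedlings were grown for 3 days in the dark and then illuminated for 6 h, and all were of the Col-0 accession. The groups were untreated wild type (Col-0), wild type on medium with 10 µM gabaculin (GAB), and the untreated mutant gun4-1, each with 3 arrays. Gabaculin inhibits the aminotransferase that forms 5-aminolevulinic acid (ALA), the first committed precursor of chlorophyll and haem, whereas GUN4 stimulates magnesium chelatase, the enzyme at the entry of the chlorophyll branch. The mutant is 1 allele, GUN4 is not named in the annotation used and was not analysed here, and both comparisons with wild type share the same Col-0 arrays. The study's methods say of its experiments in general that they were repeated independently, but neither they nor the labels say whether arrays within a group stand for separate cultures, extractions or hybridizations. What the p-values cover is the scatter among these arrays, part of which may be technical. Of the markers chosen for green tissue, only RCA, the activase of Rubisco, was named, with a log2 signal of 14.23 to 14.32 in Col-0. It bears on green tissue and cannot show that seedlings were whole. Markers of root and seed were not analysed here.

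The plastid chromosome encodes mainly the core proteins of the thylakoid complexes, while most of the outer subunits and all enzymes of chlorophyll synthesis come from the nucleus. During greening the pigment-binding core proteins are made as chlorophyll becomes available, and the plastid adjusts their output to a large part through RNA stability and translation. The D1 protein of PSII, product of psbA, is damaged by light and replaced throughout the life of the leaf, and psbA is usually transcribed on its own rather than in a long operon.

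**Figure D1:**
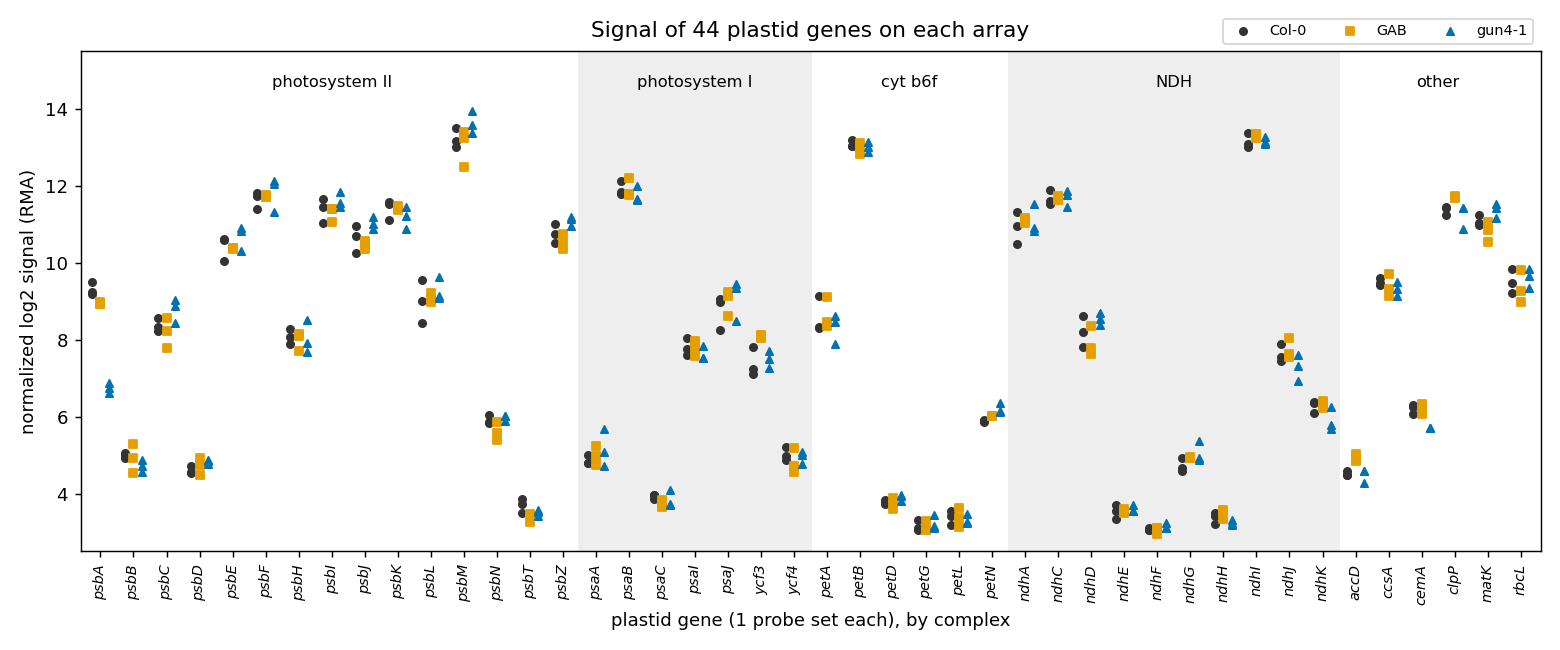
Normalized log2 signal (vertical axis) of each of the 44 plastid genes (horizontal axis, grouped by complex) on every array, with circles for Col-0, squares for GAB and triangles for gun4-1. The psbA triangles lie between 6.63 and 6.87 and the Col-0 circles between 9.19 and 9.51, whereas for most other genes the 3 symbols overlap. Heights of different genes are not comparable, because each probe set responds differently.

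Mean signals over the 9 arrays ran from 4.65 to 13.31 for 36 of the genes. The other 8, ndhE, ndhF, ndhH, petD, petG, petL, psaC and psbT, had means of 3.10 to 3.84 and were among the dimmest probe sets of the array (the lowest 25% lay below 4.17), so little can be read from them. The plastid genes scattered more between arrays of a group than other probe sets did. Their median SD among Col-0 arrays was 0.186, against 0.0969 over all probe sets. The corresponding pairs were 0.141 and 0.0950 among GAB arrays and 0.187 and 0.113 among gun4-1 arrays. Labelling was done with a 3′ kit that primes on A tails, which most plastid RNAs carry only in passing, and the part this has in the signals was not tested. In whole seedlings, fewer cells with developed plastids and less RNA per plastid cannot be told apart.

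Of all 44 genes, psbA alone passed the test, and it did so only in the comparisons with gun4-1. On the Col-0 arrays psbA gave log2 signals of 9.51, 9.19 and 9.25. With GAB the values were 8.98, 8.94 and 8.94. In gun4-1 they were 6.87, 6.76 and 6.63. The 3 groups did not overlap anywhere, and the gun4-1 arrays lay far below both of the others. The psbA signal thus fell in gun4-1 to 0.169 of the Col-0 level, a log2 fold change of -2.56 ± 0.10 (SE, n = 3 and 3, 95% interval -2.77 to -2.35, limma with Benjamini-Yekutieli adjusted p = 1.27e-07). This was the 20th lowest fold change of 22746 probe sets in that comparison. The signal comes from 1 probe set, and the part that labelling from A tails has in it was not tested. Against GAB the mutant was lower by -2.20 ± 0.10 on the log2 scale (95% interval -2.41 to -1.99, adjusted p = 8.18e-07 by limma), a ratio of 0.217. The difference between GAB and Col-0 was -0.36 ± 0.10 (95% interval -0.57 to -0.15, ratio 0.778). It did not pass, with a limma adjusted p of 0.486, although each GAB array was below each Col-0 array.

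The array-by-array view set psbA beside the other 43 genes, each relative to its own Col-0 mean. On the gun4-1 arrays psbA stood at -2.44, -2.56 and -2.68, whereas the median of the other genes was -0.10, 0.05 and 0.16. On the GAB arrays psbA stood at -0.33, -0.38 and -0.38, and the median of the others at 0.10, -0.01 and -0.11. The Col-0 arrays themselves spread over 0.20, -0.13 and -0.07 for psbA and 0.17, -0.15 and -0.02 for the others. In Col-0 psbA thus stayed within 0.04 of the median of the others on each array. It did not move with that median in gun4-1, where psbA was lowest on the array with the highest median. The difference of psbA from the median of the rest was -2.34, -2.61 and -2.84 in gun4-1 and -0.43, -0.37 and -0.27 with GAB. Averaged over arrays and set against Col-0, that difference came to -2.60 in gun4-1 and -0.36 with GAB.

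**Figure D2:**
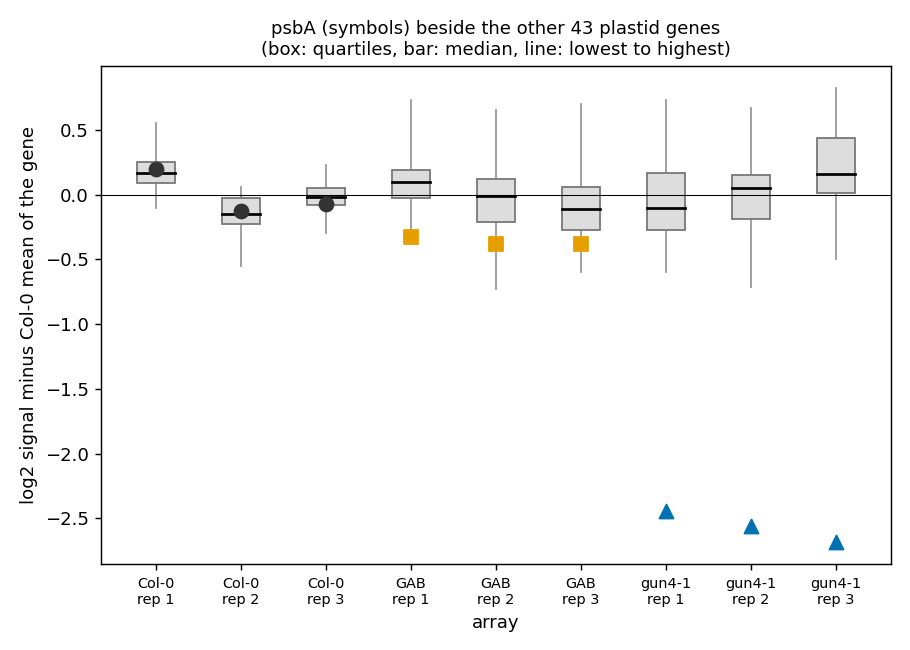
Log2 signal of psbA (circles Col-0, squares GAB, triangles gun4-1) and of the other 43 plastid genes (box for the quartiles, bar for the median, line from lowest to highest) on each of the 9 arrays, as the difference from each gene's Col-0 mean. In gun4-1 psbA lies at -2.44 to -2.68, below every other plastid gene on the same array, and with GAB at -0.33 to -0.38.

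No other gene passed the test in any of the 3 comparisons. With GAB 0 of 44 genes were called lower and 0 higher, where 0.690% and 0.769% of all probe sets were. At an unadjusted limma p under 0.05 there were 6, beside 4480 of 22746 probe sets. In gun4-1 against Col-0, 1 of 44 was called lower (psbA) and 0 higher, where 4.46% of all probe sets were lower and 2.44% higher. Unadjusted, 7 genes had a limma p under 0.05, beside 8038 of 22746 probe sets. In gun4-1 against GAB, 1 was called lower (psbA) and 0 higher, against 2.48% and 1.32% of all probe sets. Here 16 had an unadjusted limma p under 0.05, beside 6390 of 22746 probe sets. A call needed a Benjamini-Yekutieli adjusted p of at most 0.05 in limma and a fold above 1.5 or below 0.667.

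Separation of the arrays was counted as well, without a test. The GAB arrays lay wholly below Col-0 for 3 genes and wholly above for 4, which is 15.9% of the 44 against 24.0% of all probe sets. The gun4-1 arrays lay below Col-0 for 3 and above for 3, which is 13.6% against 36.0%. In gun4-1 against GAB the counts were 6 and 8, or 31.8% against 29.8%. The first pair of shares was under the background and the last near it, beside the wider scatter of plastid genes between arrays given above.

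For many genes the data also bound how far the signal could have moved. The 95% interval of the fold change lay inside the fold limits for 34 of 44 genes with GAB, beside 20545 of 22746 probe sets. In gun4-1 against Col-0 it did so for 27 of 44, psbA being outside, beside 18186 of 22746. In both comparisons the share was smaller among the plastid genes than over all probe sets. The plastid counts include all 8 dim genes, whose signals were too low to show much of a fall. For these the interval is no bound on the transcript. For genes only slightly brighter, such as psbD and psbB (means 4.73 and 4.88), it is a weak bound at most. The median log2 fold change of the 44 genes was -0.02 with GAB and 0.06 in gun4-1, against 0 and 0.02 over all probe sets. Leaving psbA aside, single genes ranged from -0.31 to 0.70 with GAB and from -0.50 to 0.41 in gun4-1. By complex, the medians with GAB and in gun4-1 were -0.10 and 0.23 for PSII without psbA. They were 0 and -0.07 for PSI, -0.01 and 0.01 for cytochrome b6f, 0.08 and 0.04 for NDH, and -0.07 and -0.08 for the remaining genes. Several of these medians are too near 0 to carry a direction. With each array centred on its median, PSI and the remaining genes in gun4-1 became 0.03 and 0.02 and cytochrome b6f with GAB became 0.03, and after quantile normalization cytochrome b6f in gun4-1 became -0.04.

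**Figure D3:**
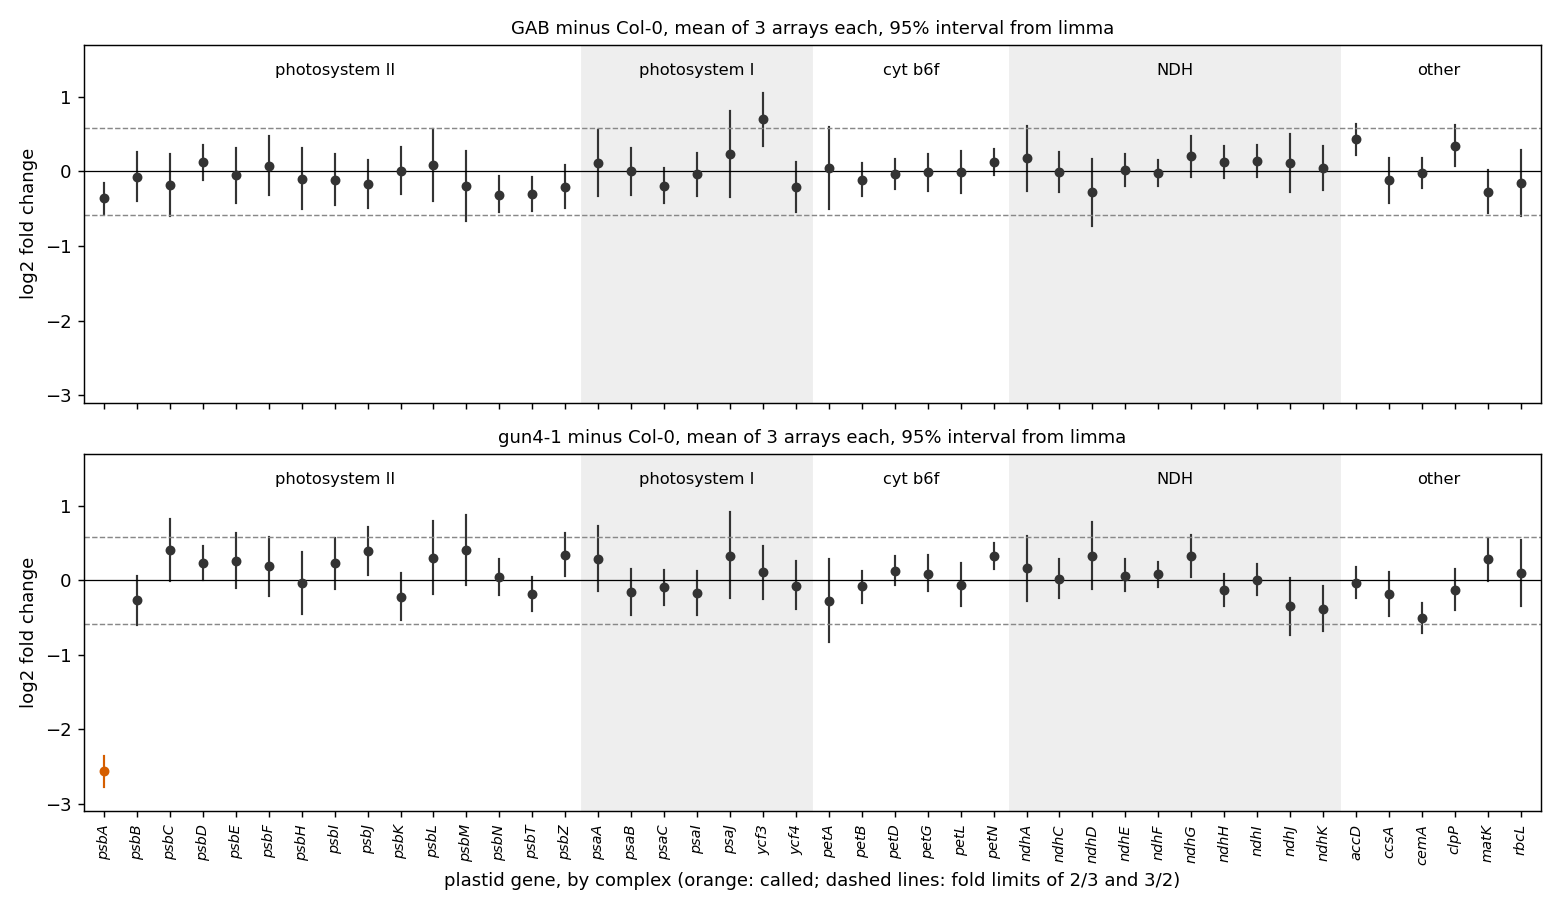
Log2 fold change (vertical axis) of the 44 plastid genes, grouped by complex, for GAB minus Col-0 (upper panel) and gun4-1 minus Col-0 (lower panel), as points with 95% intervals from limma. Dashed lines mark the fold limits, and the only called gene, psbA in gun4-1 at -2.56, is in orange.

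In the PSII core the gene of the other reaction centre subunit was not called. The D2 protein, which pairs with D1, is encoded by psbD, whose log2 signals were 4.72, 4.57 and 4.53 in Col-0, 4.75, 4.94 and 4.50 with GAB and 4.77, 4.89 and 4.85 in gun4-1. The gun4-1 arrays were slightly above all Col-0 arrays (0.23, 95% interval 0 to 0.46, limma adjusted p = 1). With GAB the difference was 0.12 and the groups overlapped. The inner antenna proteins CP47 and CP43 are encoded by psbB and psbC, which were named for this role and not by the selection rule. Their differences were -0.07 and -0.18 with GAB and -0.27 and 0.40 in gun4-1. None of them passed the test (limma adjusted p = 1 for psbB in both). The mean signals of psbD and psbB, 4.73 and 4.88, lay close above 4.17, the limit for dim probe sets. The 8 dim plastid genes still had means of 3.10 to 3.84. A fall of the size seen for psbA (-2.56) could therefore not have shown in full for psbD or psbB. Whether their transcripts were unaffected cannot be read from these values.

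None of the genes for small PSII subunits, which help the complex assemble and dimerize, passed the test, and their differences had both signs in each comparison. Over all PSII genes without psbA, 10 of 14 had a fold change above 0 in gun4-1, beside 12536 of 22746 probe sets. With GAB there were 4 of 14, beside 11374 of 22746. The highest in gun4-1 was psbM, with 13.51, 13.01 and 13.17 in Col-0, 13.39, 12.50 and 13.24 with GAB and 13.96, 13.37 and 13.59 in gun4-1. The groups overlapped, and the difference from Col-0 was 0.41 ± 0.22 (SE) in gun4-1 and -0.19 with GAB. By array, the median of the 14 genes relative to Col-0 was 0.08, 0.13 and 0.40 in gun4-1 and 0, -0.05 and -0.10 with GAB. The Col-0 arrays themselves spanned -0.23 to 0.18, so the gun4-1 arrays left this span only once. In gun4-1 against GAB, psbC, psbJ and psbZ differed by 0.59, 0.56 and 0.55, with limma adjusted p of 0.629, 0.258 and 0.152. These 3 were picked after their values had been seen.

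No PSI gene was called, and the one with the largest difference was an assembly factor gene with GAB. The reaction centre proteins that carry the primary donor are encoded by psaA and psaB, named here for that role, with differences of 0.11 and 0 with GAB and 0.29 and -0.16 in gun4-1. Ycf3 is a factor needed to assemble PSI and not a subunit of it. Its gene gave 7.81, 7.23 and 7.12 in Col-0, 8.12, 8.04 and 8.09 with GAB and 7.26, 7.50 and 7.72 in gun4-1. All GAB arrays exceeded all arrays of the other groups, and 1 Col-0 array was nearer to them than the remaining Col-0 arrays. The GAB difference, 0.70 ± 0.16 (SE, ratio 1.62), did not pass with a limma adjusted p of 0.251, and without Col-0 replicate 1 it did (0.91, adjusted p = 0.0254). In gun4-1 ycf3 differed from Col-0 by 0.11 and from GAB by -0.59 (limma adjusted p = 0.322). The second assembly factor gene, ycf4, had differences of -0.21 with GAB and -0.07 in gun4-1. Among the small subunits, psaJ differed by 0.23 and 0.33 and psaI by -0.04 and -0.17, in that order, with overlapping groups.

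The cytochrome b6f complex passes electrons from PSII to PSI, and none of its 6 genes was called. For petB, the cytochrome b6 gene, the values were 13.20, 13.03 and 13.05 in Col-0, 13.11, 13.02 and 12.83 with GAB and 13.00, 12.88 and 13.15 in gun4-1. The groups overlapped, with differences of -0.11 and -0.08. Cytochrome f is encoded by petA, which scattered more, from 8.32 to 9.15 within Col-0 alone, and differed by 0.05 with GAB and -0.28 in gun4-1. The small subunit gene petN was the one whose arrays separated. It gave 5.89, 5.91 and 5.87 in Col-0, 6.01 on each GAB array and 6.12, 6.16 and 6.36 in gun4-1. Both sets were above Col-0 on every array, by 0.12 and by 0.32 ± 0.08 (SE), and neither passed (limma adjusted p = 1 and 0.125). Values alike to 2 decimals on all arrays of a group, which among the 44 genes occurred for petN in GAB and cemA in gun4-1, give an SD close to 0 that may understate the error between seedlings.

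The NDH complex, which returns electrons from PSI to the plastoquinone pool, showed no called gene among 10. For ndhD the signals were 8.63, 7.82 and 8.20 in Col-0, 8.36, 7.63 and 7.80 with GAB and 8.70, 8.38 and 8.55 in gun4-1. Within Col-0 alone ndhD thus varied more than it differed between the group means, -0.28 with GAB and 0.33 in gun4-1. In all 3 groups replicate 1 was highest and replicate 2 lowest, so part of this spread was shared between groups. Mutant and GAB arrays differed by 0.62 (limma adjusted p = 0.72). With a replicate block in the limma fit, which treats equal numbers as matched, the adjusted p was 0.028. The labels do not say that equal numbers belong together. The most negative NDH gene in gun4-1 was ndhK at -0.38 (5.68, 5.78 and 6.26 against 6.39, 6.11 and 6.36 in Col-0, limma adjusted p = 0.712), with 0.05 under GAB. For ndhG, a membrane subunit, the differences were 0.20 and 0.33.

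The gene of Rubisco's large subunit, rbcL, showed no difference past the test. Its signals were 9.83, 9.49 and 9.21 in Col-0, 9.81, 9.28 and 8.98 with GAB and 9.83, 9.35 and 9.66 in gun4-1. The groups overlapped throughout. The fold change was -0.16 with GAB (95% interval -0.60 to 0.29) and 0.10 in gun4-1 (95% interval -0.34 to 0.54). A fall of the size seen for psbA in gun4-1 (-2.56) lies outside both intervals. The smaller psbA difference with GAB (-0.36) lies inside the GAB interval of rbcL.

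Among the remaining genes, 3 separated from Col-0 in 1 of the comparisons without being called. The accD gene, for the carboxyltransferase subunit of acetyl-CoA carboxylase in fatty acid synthesis, gave 4.58, 4.49 and 4.49 in Col-0, 4.94, 5.03 and 4.86 with GAB and 4.27, 4.59 and 4.60 in gun4-1. The GAB arrays were above all others by 0.43 ± 0.10 (SE) over Col-0, with a limma adjusted p of 0.226, while gun4-1 differed from Col-0 by -0.03 and from GAB by -0.46 (adjusted p = 0.0867). The protease subunit gene clpP, picked after its values had been seen, was also higher on each GAB array than on each Col-0 array (0.34, limma adjusted p = 1). In gun4-1 clpP differed by -0.13 from Col-0 and by -0.47 from GAB (limma adjusted p = 0.304).

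The envelope membrane protein gene cemA was the only gene besides psbA with an adjusted p under 0.05. It gave 6.32, 6.26 and 6.07 in Col-0, 6.18, 6.34 and 6.07 with GAB and 5.72 on each gun4-1 array. The mutant arrays lay below all the others, by -0.50 ± 0.09 (SE) against Col-0 (limma adjusted p = 0.0216) and by -0.48 against GAB (adjusted p = 0.0519). The ratio of 0.708 to Col-0 did not reach the fold limit, and the near-identical gun4-1 values may understate its error. The adjusted p rose above 0.05 under 7 of 18 alternatives: quantile normalization (-0.40, adjusted p = 0.135), median centring (-0.40, adjusted p = 0.112), and leaving out Col-0 replicate 1 or 2 (adjusted p = 0.114 and 0.121) or gun4-1 replicate 1, 2 or 3 (0.0813, 0.0698 and 0.086). For matK, which encodes a maturase for plastid introns, the differences were -0.27 with GAB, 0.28 in gun4-1 and 0.55 between gun4-1 and GAB (limma adjusted p = 0.168).

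Along the plastid chromosome, counting only protein genes with a named probe set, the gene next to psbA is matK, which was not called in gun4-1 (0.28). The genes psbD, psbC and psbZ lie side by side and stood at 0.23, 0.40 and 0.34 in gun4-1 and at 0.12, -0.18 and -0.21 with GAB. Another run of neighbours, psbJ, psbL, psbF and psbE, ranged from 0.19 to 0.39 in gun4-1 and from -0.17 to 0.09 with GAB. The stretch from psbB over psbT, psbN, psbH and petB to petD ranged from -0.27 to 0.13 and from -0.31 to -0.04, respectively. Some neighbours in such runs are cotranscribed, so their signals should not be counted as independent measurements. Which of these genes share a strand or a transcript was not examined here. The pair ycf3 and rps4, also side by side, stood at 0.70 and 0.15 with GAB and at 0.11 and -0.51 in gun4-1.

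**Figure D4:**
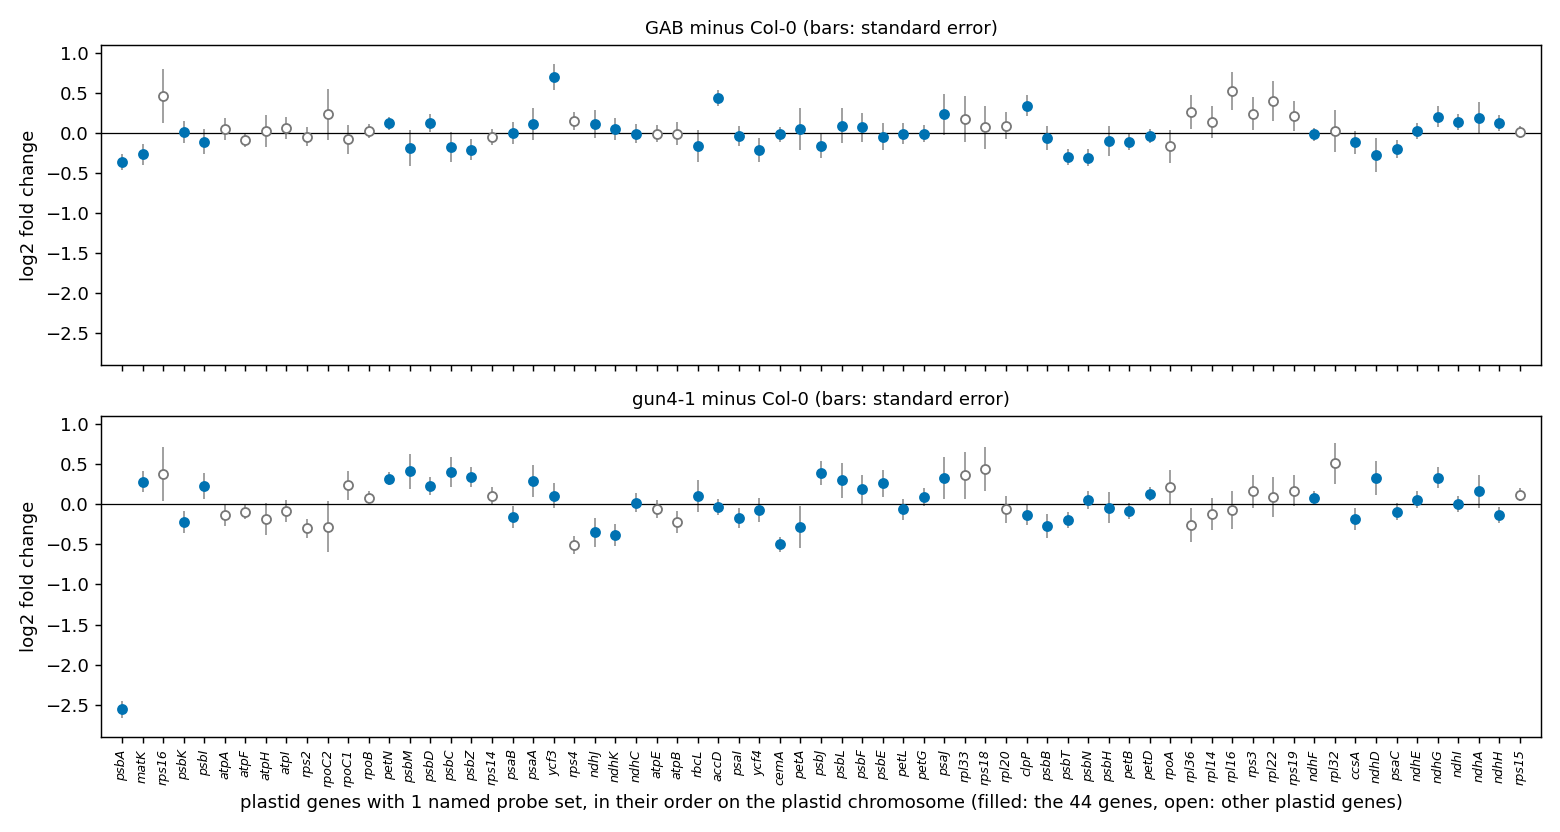
Log2 fold change with its standard error (vertical axis) of plastid genes in their order along the plastid chromosome (horizontal axis), for GAB minus Col-0 (upper panel) and gun4-1 minus Col-0 (lower panel). Filled points are the 44 genes and open points 25 other plastid genes, and psbA at -2.56 in gun4-1 stands alone, with all other points at -0.51 or above.

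Plastid genes are transcribed by a bacterial-type polymerase made in the plastid and by phage-type polymerases from the nucleus, a division of labour known in detail from tobacco. Of 16 genes assigned there to the plastid-encoded enzyme, psbA was the 1 called in gun4-1, and the median was 0.12 in gun4-1 and -0.08 with GAB. The 4 genes assigned to the nuclear-encoded enzyme alone, accD, rpoB, rpoC1 and rpoC2, had medians of 0.03 and 0.13 and no call. For clpP, atpB, ndhA and ndhF, which use both enzymes, the medians were -0.02 and 0.08, again with no call. Over all probe sets 4.46% were called lower and 2.44% higher in gun4-1, and 0.690% and 0.769% with GAB. Dim genes were petD and psbT in the first class, rpoB in the second and ndhF in the third. Little can be read from these.

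The 25 further plastid genes with their own probe set, for ATP synthase (6), RNA polymerase (4) and ribosome (15), gave no call against Col-0. Over all probe sets 0.690% were called lower and 0.769% higher with GAB, and 4.46% and 2.44% in gun4-1. Of the 25 genes, 3 were dim (atpI, rpoB and rps14), so little can be read from those. The medians of the 25 were 0.06 with GAB and -0.06 in gun4-1. In gun4-1 against GAB the ribosomal protein gene rps4 fell by 0.65 (limma adjusted p = 0.0236), and this call went to 0 genes when GAB replicate 1, 2 or 3 or gun4-1 replicate 1 or 2 was left out. Nuclear partners could hardly be compared, since only PSAN, PSBW, PSBY and RCA were named among those listed, with 0 called and medians of 0.02 and -0.04. Mitochondrion-encoded genes, the other organelle RNAs on the array, had 17 probe sets for 10 genes. Called higher were 1 with GAB and 2 in gun4-1, where 0.769% and 2.44% of all probe sets were. The gene called in both was cox2, a subunit of cytochrome oxidase, higher by 1.03 with GAB (limma adjusted p = 0.0041) and by 1.02 in gun4-1 (adjusted p = 0.000878). The gun4-1 arrays lay wholly above Col-0 for 11 of the 17 and wholly below for 0, which is 64.7% against 36.0% of all probe sets in either direction. With GAB the share was 11.8% against 24.0%, and 8 of the 17 were dim. The 11 probe sets covered only cox2, nad1, nad4, nad4L, nad5 and nad9, with repeat probe sets of nad1 and nad5. Such repeats are not independent measurements, and those of nad5, that of nad9 and some of nad1 were dim.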

How the data were processed

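The deposited values are log2 signals per probe set that the authors calculated with the robust multi-array average, which corrects background, normalizes between arrays and summarizes probes. Affymetrix Expression Console is the program listed in the submitters' processing notes, and its version is not given in the sources used here. RNA was labelled with a 3′ IVT kit. The scanner data were not used here, and the number of arrays limits the precision. Of 22810 rows, 64 control probe sets were left out. Samples were grouped by their labels and compared in 1 fit of 9 arrays with limma 3.58.1 in R 4.3.3 (6 residual and 5.91 prior degrees of freedom). P-values were adjusted by Benjamini-Yekutieli over 22746 probe sets, with the fold limits of the study's methods. With 3 arrays against 3 no two-sided exact permutation p can be under 0.1, so none is given. The fit was tested on simulated data.

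Genes were named from the platform annotation; 503 probe sets with several symbols and 8730 unnamed ones were not named. RefSeq gave the chromosome and gene order. No sequences were used here. Genes named in the text are psbA, rbcL, psbD, every called gene, and the lowest and highest of each complex in either comparison with Col-0, besides those named for a role or after their values were seen, as stated there. The genes and lists were chosen with earlier results of these data known. Alternatives were Benjamini-Hochberg adjustment, no fold limit, quantile normalization, median centring, array weights, dim probe sets left out, a trended and robust variance, only the 2 groups compared, an equal-variance test per probe set, a replicate block and leaving out each array.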

Additional observations from a re-analysis of the deposited data

Results flagged for a closer look

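The response of psbA differed between the mutant and the treatment, tested directly on the arrays of gun4-1 and GAB. The difference, gun4-1 minus GAB, was -2.20 on the log2 scale (95% interval -2.41 to -1.99, limma adjusted p = 8.18e-07), with all gun4-1 arrays below all GAB arrays. None of the other 43 genes passed this test.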

How the results depend on the processing

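The fall of psbA in gun4-1 kept its direction and its call under all 18 alternatives run, with -2.63 to -2.46 against Col-0 (highest adjusted p 1.23e-05) and -2.26 to -2.14 against GAB (highest adjusted p 3.18e-05). With GAB the psbA difference ranged from -0.43 to -0.26 and was called under none. Its lowest limma adjusted p was 0.0459, and there the fold limit was not reached. With Benjamini-Hochberg adjustment ycf3 was also called, so that 1 gene was higher with GAB (adjusted p = 0.0237) and 2 were lower in gun4-1 against GAB (adjusted p = 0.0304 for ycf3). Without a fold limit 2 genes were lower in gun4-1 against Col-0, psbA and cemA, the latter with an adjusted p of 0.00204 to 0.135 over its alternatives. Same-numbered arrays were not treated as pairs: the r of their deviations was -0.0666 to 0.265 and above 0.1 in 6 of 9 pairs rather than all, and not every array correlated best with its own number. With the replicate block 2 genes, ndhD and psbM, were higher in gun4-1 against GAB (adjusted p = 0.028 and 0.0444). Leaving out 1 array gave 0 to 1 gene higher with GAB, and 0 to 1 other plastid gene lower in gun4-1 against GAB. The latter count was also 0 with median centring and in the equal-variance test. Median centring moved all probe sets by 0.04 with GAB and 0.10 in gun4-1.

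Some differences that were not called changed sign, among them psaJ with GAB, at 0.23 with all arrays. In gun4-1, median centring gave 0.07 for accD, 0.01 for petB and 0.03 for ycf4. With GAB, cemA became 0.02 after quantile normalization and after centring, and 0 with array weights. Over the arrays left out in turn, the GAB differences ran from -0.10 to 0.04 for cemA, -0.04 to 0.10 for ndhK, -0.19 to 0.32 for petA, -0.14 to 0.08 for psaI, -0.02 to 0.42 for psaJ, -0.36 to 0.08 for psbM, -0.38 to 0.03 for rbcL, -0.25 to 0.12 for psbB, -0.37 to 0.02 for psbC, -0.01 to 0.23 for psaA and -0.14 to 0.11 for psaB. Those in gun4-1 ran from -0.09 to 0.08 for accD, -0.05 to 0.26 for rbcL, -0.03 to 0.32 for ycf3, -0.14 to 0.03 for ycf4 and -0.21 to 0.05 for clpP. The causes were not tested. The 8 dim genes limit what can be read from petD, petG, petL, psaC, psbT, ndhE, ndhF and ndhH.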
